A study of Mus musculus with 6 samples.

Results

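The glutathione and aldehyde detoxification genes are the glutathione S-transferases (GST), glutathione peroxidases (GPX) and aldehyde dehydrogenases (ALDH), together with the 4 genes that make and recycle glutathione. They were chosen by gene symbol alone: Gsta, Gstk, Gstm, Gsto, Gstp, Gstt and Gstz with a number, Mgst, Gpx and Aldh with a number except Aldh1a2, and Gclc, Gclm, Gss and Gsr. This gave 56 of the 24393 listed genes: 21 cytosolic GST genes, 3 microsomal GST genes, 8 GPX genes, 4 genes of glutathione synthesis and reduction and 20 ALDH genes. RNA had been sequenced from 6 libraries of differentiated KH2 cells, a mouse embryonic stem cell line with a docking locus for doxycycline-inducible transgenes, labelled as strain C57/BL/6. The 3 HOXA13 libraries came from cells that had been targeted with a FLAG-tagged human HOXA13 gene, and the 3 CONTROL libraries came from control KH2 cells. Both groups were differentiated without LIF for 6 days on a feeder layer of M15 cells, which derive from mesoderm, in medium with CHIR, Noggin, Activin-A and basic Fibroblast Growth Factor. Doxycycline at 1.25 µg/ml was started on day 4, CXCR4+ and E-cadherin+ cells were taken by a sort at day 6, and RNA was taken after 1 further day of culture with doxycycline. The labels give this protocol for both groups. The study's methods call the 3 samples of each group biological replicates, chosen after targeted clones had been checked for induction of HOXA13, but do not say whether each was a separate clone. The comparison asks which of these genes differed between HOXA13 and CONTROL cells.

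Glutathione is a small sulphur-containing peptide that neutralises oxidants and reactive molecules. Glutamate-cysteine ligase, made of the catalytic subunit Gclc and the modifier subunit Gclm, catalyses the rate-limiting step of its synthesis, Gss completes it, and Gsr regenerates it from its oxidised form. GST enzymes attach glutathione to electrophiles, GPX enzymes use it to reduce peroxides, and ALDH enzymes oxidise reactive aldehydes to acids. Many of these genes are induced by Nrf2 (gene Nfe2l2), a transcription factor that Keap1 marks for degradation and that binds antioxidant response elements in promoters. Glutathione enzymes and ALDH activity are well known in epithelia that meet reflux, diet and toxins, such as those of the gut.

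The libraries held between 12279884 and 17331638 counts, and the floor of detection was set at 3 counts, which is 0.176 to 0.240 CPM by library (CPM being read counts scaled by the TMM-normalised library size). This floor covers counting error only. The row of the human HOXA13 gene had 0 counts in each CONTROL library and 2497, 7666 and 6572 counts in HOXA13 replicates 1, 2 and 3, as labelled. CONTROL 2 stood apart from its group: its Spearman correlation across genes was 0.908 with CONTROL 1 and 0.931 with CONTROL 3, but 0.951 to 0.961 with the HOXA13 libraries, while CONTROL 1 and 3 correlated at 0.977. Of 11 definitive endoderm markers, Cer1 was at 0 in all 6 libraries and Gsc at 0 in CONTROL 2 and HOXA13 1. The summed level of the list was low, between 120 and 191 CPM in CONTROL and between 79.7 and 121 CPM in HOXA13. The labelled endoderm thus rested on few transcripts. Of 9 tested, 4 had a fitted change above 0 and 5 below, and 0 passed an adjusted p of 0.05 in edgeR. Only Eomes did not overlap between the groups, at 49.0 to 111 CPM in CONTROL against 24.4 to 41.9 CPM in HOXA13. Its log2 fold change was -1.32 (edgeR adjusted p = 0.141). Epithelial markers summed to between 2350 and 8371 CPM in CONTROL and between 10707 and 12633 CPM in HOXA13, and 16 of 16 had a fitted change above 0. Of these, 0 passed an adjusted p of 0.05 in edgeR, but 13 had an unadjusted p under 0.05, against 14.1% of all tested genes, and 14 were higher in every HOXA13 library than in any CONTROL library, against 11.5%. Mesenchymal markers summed to between 2913 and 12543 CPM in CONTROL and between 2457 and 6157 CPM in HOXA13. These sums were lowest in CONTROL 2 and in HOXA13 1 within their groups. Fn1, whose fitted change was 0.35, made up 4631 and 4976 CPM of the sums in HOXA13 2 and 3. Of 16 tested, 13 had a fitted change below 0, with a median log2 fold change of -1.30. In edgeR 0 of them passed an adjusted p of 0.05. At an unadjusted p under 0.05 there were 6 lower, against 819 of all 13600 tested genes. Across all libraries 0 were lower without overlap and 1, Thy1, was higher, against 8.52% and 11.5% of all tested genes. Pluripotency markers summed to 152, 1487 and 254 CPM in CONTROL 1, 2 and 3 and to between 509 and 804 CPM in HOXA13, with Fgf4 at 0 in CONTROL 1 and Tdgf1 at 0 in HOXA13 3, and Pou5f1, a defining gene of that list, was at 0.851, 310 and 5.77 CPM in CONTROL. Proliferation markers summed to 781, 1902 and 751 CPM in CONTROL and to between 1419 and 1800 CPM in HOXA13, and 10 of 10 had a fitted change above 0, 0 of them at an unadjusted p under 0.05.

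Most of the detoxification genes were not separated between the groups. A gene was tested when it passed a filter on low counts, and 40 of the 56 members were tested. The 16 that were not tested reached at most 31 counts or 2.48 CPM in any library, and Gsta2, Gstt1 and Gstt4 had 0 counts in every library. When edgeR's quasi-likelihood test was run on all 13600 tested genes, with p-values adjusted by Benjamini-Hochberg, 1 member passed an adjusted p of 0.05, Mgst3, which was higher in HOXA13. Over all tested genes 0.309% were called, and 0.265% were called higher. At an unadjusted p under 0.05 there were 8 of 40 members, 4 higher and 4 lower, against 14.1% of all tested genes. The 3 HOXA13 libraries lay above all 3 CONTROL libraries for 4 members and below them for 4, where 11.5% of all tested genes lay above and 8.52% below. Against backgrounds of this size, the last 2 counts are no result about the members. The fitted change was above 0 for 21 members and below 0 for 19, with a median log2 fold change of 0.09 against -0.01 over all tested genes. The sign of this median was not stable: it was -0.10 without HOXA13 1, 0.30 without CONTROL 2 and -0.05 with limma voom.

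**Figure D1:**
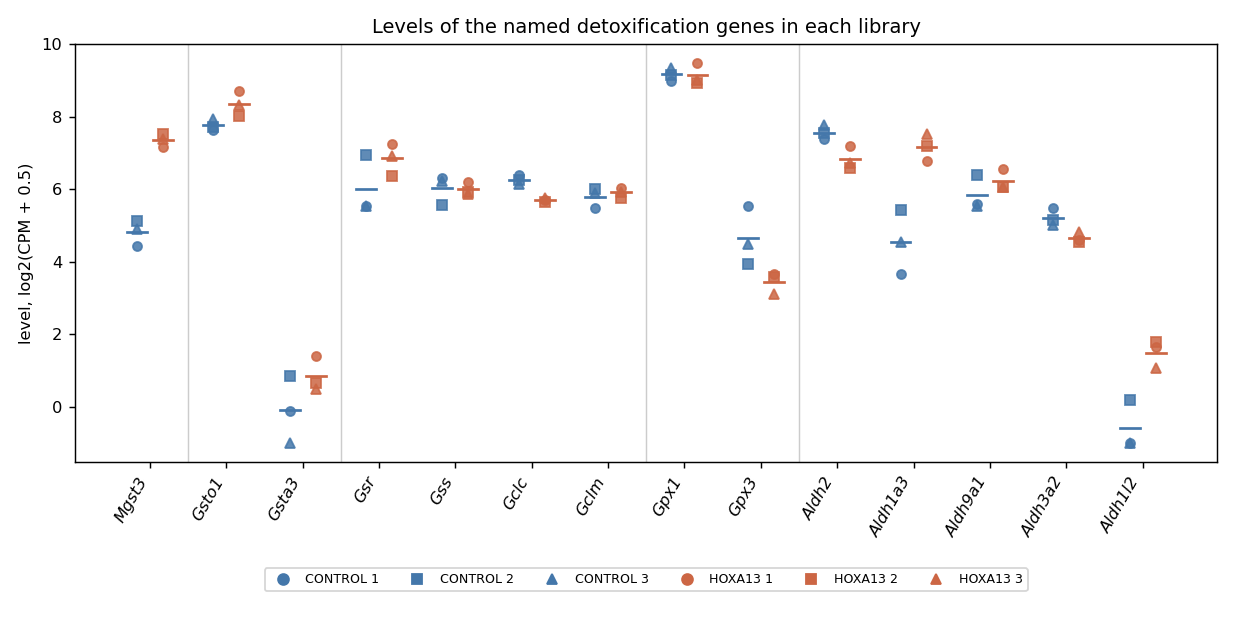
Level of each gene named by rule in each of the 6 libraries as log2(CPM + 0.5), grouped by family, with CONTROL in blue, HOXA13 in orange, the replicate given by the symbol and the group mean of the log values as a bar. The 3 HOXA13 libraries of Mgst3 sit between 142 and 182 CPM, above the highest CONTROL library at 34.3 CPM, while those of Gpx1 overlap the CONTROL libraries.

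Mgst3 encodes a microsomal GST, a membrane enzyme with transferase and peroxidase activity. Its level was 21.3, 34.3 and 29.2 CPM in CONTROL 1, 2 and 3, against 142, 182 and 168 in HOXA13 1, 2 and 3. Every HOXA13 library was at least 4 times the level of every CONTROL library. The means were 28.3 ± 6.57 CPM (SD, n = 3) and 164 ± 20.4 CPM (SD, n = 3), a 5.80-fold difference. edgeR gave 2.54 on the log2 scale (SE 0.22, adjusted p = 0.0203). By unadjusted p it ranked 2 among the 13600 tested genes. The fitted change was 2.68 without CONTROL 2, where the adjusted p of the same test was 0.00041. It was past the threshold without HOXA13 1, but not without any 1 of CONTROL 1, CONTROL 3, HOXA13 2 or HOXA13 3, where the adjusted p was between 0.0671 and 0.189 and the change between 2.35 and 2.54. With the replicate number fitted as a block, the change of Mgst3 was 2.56 and also missed the threshold (edgeR adjusted p = 0.0535). None of the 75-base windows of its longest transcript matched elsewhere in the genome or in another gene's transcript with at most 2 mismatches, so no close copy was found that could take its reads.

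Per kilobase of exon, Mgst3 moved from position 9 among the members in CONTROL, at 25.8 CPM per kb, to position 3 in HOXA13, at 150 CPM per kb. Only Gpx1 and Gsto1 had a higher mean per kb in HOXA13. The Gsto1 libraries, between 131 and 215 CPM per kb there, overlapped those of Mgst3, between 130 and 166 CPM per kb. In CONTROL, Mgst3, Gsr, Aldh7a1 and Aldh9a1 overlapped in the same measure. The other microsomal genes were low: Mgst1 was between 0 and 2.70 CPM, and Mgst2, which was not tested, was between 0 and 0.879 CPM.

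Mgst3 lies on the minus strand at chr1:169302097-169323972 of mm9 (ENSMUSG00000026688.5 in GENCODE M1), and chromosome 1 was higher as a whole in HOXA13. Of its 476 tested genes of at least 16 CPM, 92.2% had a fitted change above 0, with a median log2 fold change of 0.54. It held 17 of the 42 genes past the threshold. The change of Mgst3 was larger than this shift: 19 of 8453 tested genes of at least 16 CPM on any chromosome changed more in the upward direction, 2 of them on chromosome 1. With the median deviation of each chromosome removed from every library, Mgst3 differed by 1.96 on the log2 scale, with an adjusted p of 0.0598 in the same test, past the threshold no longer. Between the groups, the level of chromosome 1 and the summed epithelial markers were both higher in every HOXA13 library than in any CONTROL library, and their parts cannot be told apart from that of the group. In bulk RNA, fewer cells of a type and less RNA per cell cannot be told apart either.

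The tested genes next to Mgst3 had smaller fitted changes. Within 0.5 Mb there were 4, with log2 fold changes of 1.45 for Fam78b, 1.28 for Uck2, 0.41 for Tmco1 and 0.35 for Aldh9a1, and 0 passed the threshold. At an unadjusted p under 0.05 there were Fam78b, Uck2 and Tmco1, which were also the 3 whose groups did not overlap, where 14.1% of all tested genes had such a p and 11.5% lay above without overlap. As 92.2% of chromosome 1 genes of at least 16 CPM had a fitted change above 0, these counts are no result about the neighbourhood of Mgst3. The nearest is itself a member: Aldh9a1, an aldehyde dehydrogenase of amine-derived aldehydes, on the plus strand at chr1:169280122-169298661 (ENSMUSG00000026687.9), ends 3435 bases from the end of Mgst3. Its level was 47.6, 84.3 and 45.7 CPM in CONTROL, against 93.5, 66.7 and 66.6 in HOXA13, so that CONTROL 2 lay above HOXA13 2 and 3. Its log2 fold change was 0.35 (SE 0.28; edgeR adjusted p = 0.651), 0.68 without CONTROL 2 (adjusted p = 0.0559) and -0.23 with the chromosome offset. The third member on chromosome 1, Gsta3, an alpha class GST at chr1:21230670-21255442 on the plus strand, was near the floor, with 6, 16 and 0 counts in CONTROL and 28, 18 and 15 counts in HOXA13. Its fitted change of 1.26 (SE 1.32) did not pass the test (adjusted p = 0.745).

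**Figure D2:**
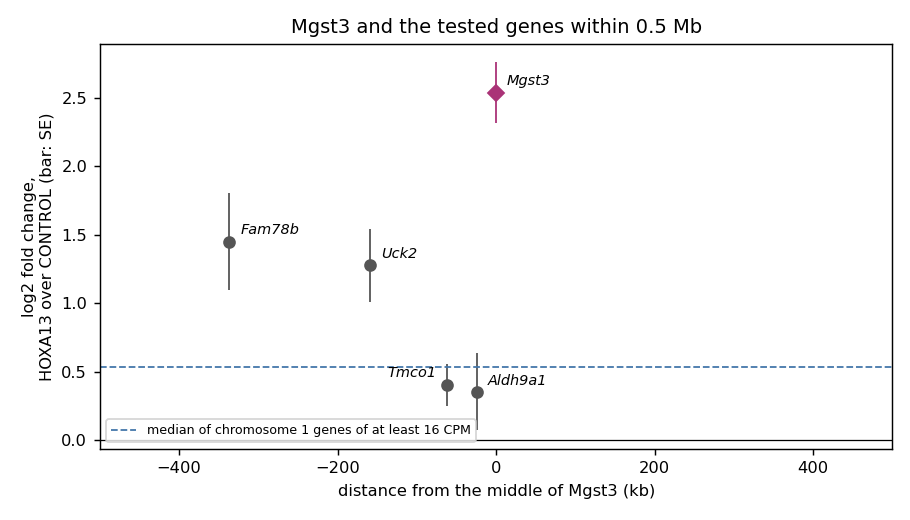
Log2 fold change of HOXA13 over CONTROL with its SE for Mgst3 and the 4 other tested genes within 0.5 Mb, against the distance between gene middles in kb. Mgst3 at 2.54 sits above each neighbour, the highest of which is Fam78b at 1.45, and the dashed line is the chromosome 1 median of 0.54.

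The promoters of the members on chromosome 1 are shown because these genes share a chromosome and 2 of them are neighbours, and that of Gclm because its gene is a well-known target of Nrf2. The windows are the RefSeq promoters of GRCm38.p6, from 250 bases before to 50 after the annotated start, written 5′ to 3′ on the gene's strand, and each matched 1 place in mm9 over its whole length. Capitals mark matches to the core of the antioxidant response element, TGACNNNGC, on either strand. In mm9, Mgst3 is chr1:169323923-169324222 on the minus strand, Aldh9a1 is chr1:169279872-169280171, Gsta3 is chr1:21230416-21230715 and Gclm is chr3:121948225-121948524, all on the plus strand.
Mgst3: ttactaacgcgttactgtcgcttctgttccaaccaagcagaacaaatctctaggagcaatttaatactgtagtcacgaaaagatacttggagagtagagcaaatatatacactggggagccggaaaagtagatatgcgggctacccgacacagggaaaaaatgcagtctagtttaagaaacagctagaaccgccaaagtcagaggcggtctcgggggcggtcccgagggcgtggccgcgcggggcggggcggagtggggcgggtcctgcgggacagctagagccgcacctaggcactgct
Aldh9a1: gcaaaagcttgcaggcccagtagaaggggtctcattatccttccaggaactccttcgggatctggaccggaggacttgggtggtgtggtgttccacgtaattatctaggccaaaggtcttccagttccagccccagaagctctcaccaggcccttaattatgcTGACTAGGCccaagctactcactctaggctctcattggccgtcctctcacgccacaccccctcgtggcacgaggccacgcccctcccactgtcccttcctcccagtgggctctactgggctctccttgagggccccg
Gsta3: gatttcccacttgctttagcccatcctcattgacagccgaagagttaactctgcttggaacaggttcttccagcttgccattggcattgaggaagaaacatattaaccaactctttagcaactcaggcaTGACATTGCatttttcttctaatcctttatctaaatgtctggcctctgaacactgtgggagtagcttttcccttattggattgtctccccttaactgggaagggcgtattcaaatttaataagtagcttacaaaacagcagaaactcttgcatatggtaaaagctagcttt
Gclm: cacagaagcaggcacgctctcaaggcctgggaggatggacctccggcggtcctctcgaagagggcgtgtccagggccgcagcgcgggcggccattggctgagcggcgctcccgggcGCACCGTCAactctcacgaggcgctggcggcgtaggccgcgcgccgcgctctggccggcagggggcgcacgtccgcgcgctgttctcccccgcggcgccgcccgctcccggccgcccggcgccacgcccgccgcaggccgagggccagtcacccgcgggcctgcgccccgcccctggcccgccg
Aldh9a1 held TGACTAGGC and Gsta3 held TGACATTGC, whereas Gclm held the core on the other strand, read here as GCACCGTCA. The Mgst3 window held no match, so the member with the clearest difference was among those without these letters in this window. Of the 56 members, 46 had a RefSeq window, and 6 had a match: those 3, Gstm5, Gstm7 and Mgst1. Over windows the share was 6 of 60, against 12.4% of all 32851 promoters. CAATAAA, a core that HOX13 proteins bind, was in 0 of the 60 windows and in 4.6% of all promoters. These are matches of letters, and the windows are short.

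Among the cytosolic GST genes, 15 of 21 were tested and 0 passed the threshold, with 9 fitted changes above 0 and 6 below and a median log2 fold change of 0.35. The median was -0.12 over the 11 tested genes with less than 25% of their 75-base windows shared with another place, so the sign of the family median rested on genes whose reads are uncertain. Gsto1, an omega class GST that reduces dehydroascorbate and arsenicals, had the highest level of the family. It was at 197, 209 and 247 CPM in CONTROL, against 423, 257 and 322 in HOXA13. HOXA13 2 was only just above CONTROL 3, but the groups did not overlap. The means were 218 ± 26.1 and 334 ± 83.5 CPM (SD, n = 3 each), and the log2 fold change, 0.62 (SE 0.21), did not pass the adjusted test in edgeR (adjusted p = 0.241) or without CONTROL 2 (0.57, adjusted p = 0.12). Gsto1 lies at chr19:47929460-47939280 on the plus strand (ENSMUSG00000025068.7). Its neighbour Gsto2 was between 0 and 1.94 CPM.

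In the alpha, mu and theta classes, some genes varied widely between CONTROL libraries. Gsta4, which conjugates the lipid aldehyde 4-hydroxynonenal, was at 13.5, 81.8 and 4.05 CPM in CONTROL, against 52.5, 12.8 and 16.2 in HOXA13. The library CONTROL 2 was thus the highest of all 6 and CONTROL 3 the lowest. Its log2 fold change was -0.29 (SE 0.98) over all libraries and 1.61 without CONTROL 2, with adjusted p-values of 0.935 and 0.16 in edgeR. Gstm1 was at 2.48, 19.5 and 4.95 CPM in CONTROL, against 25.4, 6.50 and 12.8 in HOXA13, again with CONTROL 2 among the HOXA13 values, and 56.7% of its windows were shared. The theta gene Gstt2 was at 1.91, 9.43 and 2.85 CPM in CONTROL, against 12.4, 8.08 and 8.19 in HOXA13. Gstp1 and Gstp2, the pi class, shared 75.4% and 100% of their windows, so their levels, at most 11.1 CPM, are uncertain. Gstz1, which isomerises an intermediate of tyrosine breakdown, stayed between 17.9 and 31.1 CPM, with a log2 fold change of -0.12 (SE 0.26).

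**Figure D3:**
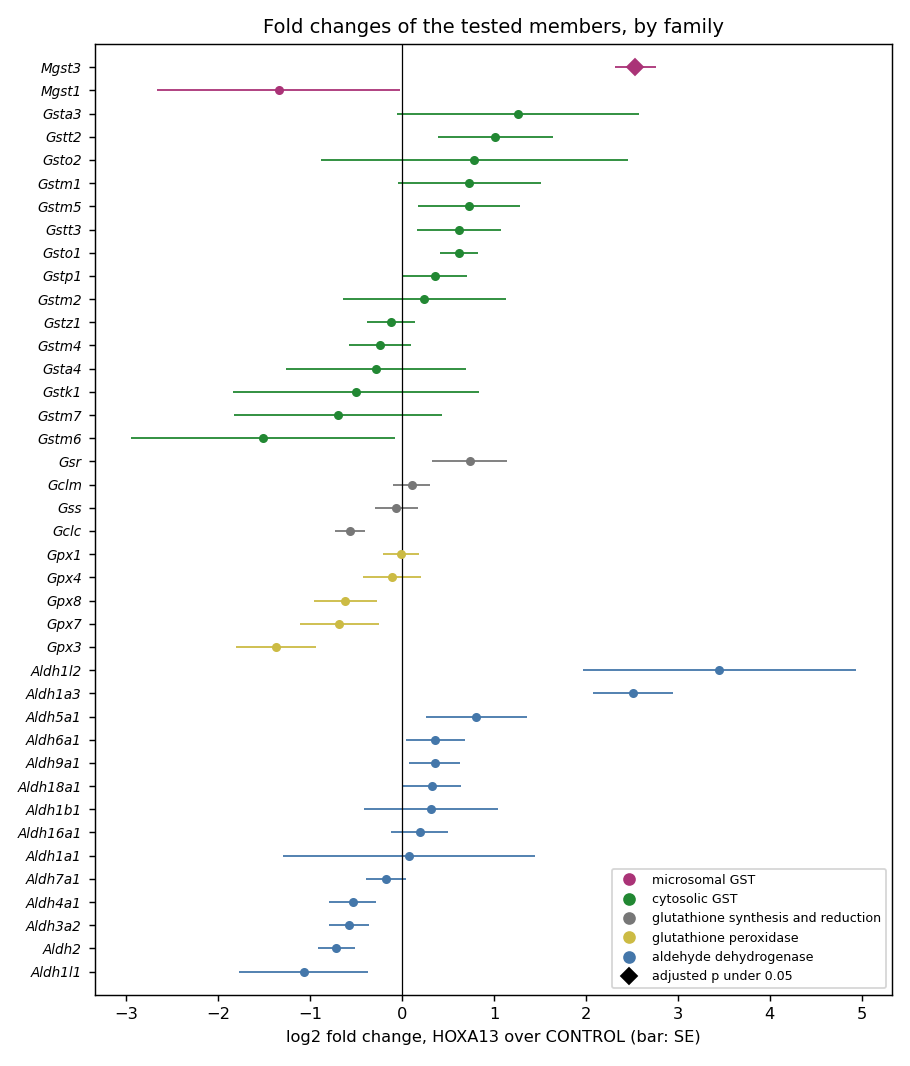
Log2 fold change of HOXA13 over CONTROL with its SE for the 40 tested members, coloured by family and ordered by value within each. Mgst3, the diamond at 2.54, is the member past the threshold, Aldh1a3 at 2.51 and Aldh1l2 at 3.45 lie as far to the right with wider bars, and the 5 GPX genes lie at or left of 0. Aldh1l2 had few counts and passed the filter on low counts only through HOXA13, so its place is no support for a difference.

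The genes that make and recycle glutathione did not move together: their median log2 fold change was 0.02 over 4 tested genes. Gclc was at 84.0, 75.3 and 69.8 CPM in CONTROL, against 51.3, 49.7 and 53.4 in HOXA13. All 3 HOXA13 libraries were below the lowest CONTROL library, and they were within a few CPM of each other. The means were 76.4 ± 7.17 and 51.5 ± 1.85 CPM (SD, n = 3 each), a log2 fold change of -0.57 (SE 0.16) that had an unadjusted p of 0.00839 and an adjusted p of 0.178 in edgeR's test over all genes. Without CONTROL 2 the change was -0.60, past the threshold (adjusted p = 0.0449). Gclc lies at chr9:77602342-77642292 on the plus strand (ENSMUSG00000032350.8).

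Gclm, its partner subunit, was at 44.0, 64.3 and 58.9 CPM in CONTROL, against 65.3, 53.8 and 60.8 in HOXA13, and the groups overlapped. Its log2 fold change was 0.11 (SE 0.20; edgeR adjusted p = 0.869). Gss was at 78.7, 46.5 and 74.8 CPM in CONTROL, against 72.8, 60.2 and 58.4 in HOXA13, with a log2 fold change of -0.06 (SE 0.24; adjusted p = 0.942). Both changes were smaller than their SE. Genes on the opposite strand cover 5.76% of the exon bases of Gclm and, at most, 6.72% of those of Gss for any 1 gene. Gsr, glutathione reductase, was at 46.2, 122 and 45.9 CPM in CONTROL, against 152, 82.5 and 121 in HOXA13. CONTROL 2 was at the HOXA13 level, while CONTROL 1 and 3 were below every HOXA13 library. Its log2 fold change was 0.73 (SE 0.41; edgeR adjusted p = 0.488), and 1.35 without CONTROL 2 (SE 0.25; adjusted p = 0.00963). It was 0.48 without CONTROL 1, 0.48 without CONTROL 3 and 0.50 without HOXA13 1, with adjusted p-values between 0.787 and 0.844.

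The 5 tested GPX genes all had fitted changes below 0, with a median log2 fold change of -0.62, and 0 passed the threshold. Gpx1, the cytosolic peroxidase of hydrogen peroxide, was the member with the highest level per kb in both groups. It was at 512, 572 and 656 CPM in CONTROL, against 718, 488 and 521 in HOXA13, with a log2 fold change of -0.01 (SE 0.20; edgeR adjusted p = 0.99). Gpx3, the secreted plasma form, was at 45.8, 14.7 and 21.7 CPM in CONTROL, against 12.2, 11.4 and 8.12 in HOXA13. The groups did not overlap, although CONTROL 2 was close to HOXA13 1. The means were 27.4 ± 16.3 and 10.6 ± 2.17 CPM (SD, n = 3 each), a log2 fold change of -1.37 (SE 0.43) with an unadjusted p of 0.0133 and an adjusted p of 0.212 in edgeR's test. It rested in part on CONTROL 1: the change was -0.81 without that library (adjusted p = 0.545) and -1.69 without CONTROL 2 (adjusted p = 0.0151). Chromosome 11, on which it lies, was high in CONTROL 1, with a median log2 deviation of 0.37 against -0.12 to -0.03 in the other libraries, and with the chromosome offset the change of Gpx3 was -1.15 (adjusted p = 0.223). Gpx3 lies at chr11:54715955-54723879 on the plus strand (ENSMUSG00000018339.5).

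Gpx7 and Gpx8, peroxidases of the endoplasmic reticulum, had log2 fold changes of -0.68 (SE 0.43) and -0.62 (SE 0.35), which did not pass the test. Gpx8 was at 77.8, 28.1 and 59.5 CPM in CONTROL, against 37.9, 38.0 and 32.0 in HOXA13, with CONTROL 2 lowest of the 6. Without CONTROL 2 its change was -0.95 (edgeR adjusted p = 0.0135). For Gpx3, Gpx7 and Gpx8 the order of the CONTROL libraries, 1 highest and 2 lowest, was also that of the summed mesenchymal markers. In HOXA13 that sum was lowest in replicate 1, where Gpx7 was lowest but Gpx3 was highest and Gpx8 was not low, and the part of these markers in the differences was not tested. The tested markers of the mesonephric feeder (7 of 7, median log2 fold change -0.63) and of extraembryonic endoderm (6 of 6, median -0.85) also had fitted changes below 0, with 0 past the threshold. The feeder markers summed to between 53.9 and 58.8 CPM in CONTROL and between 32.7 and 51.9 CPM in HOXA13. Most of each sum was Sall1, at 33.1 to 38.7 CPM in CONTROL and 26.0 to 41.0 CPM in HOXA13. The groups of Sall1 overlapped, with a log2 fold change of -0.20, so the sum is a poor measure of feeder RNA. The extraembryonic markers, of which Afp and Ttr were at 0 in all 6 libraries, summed to between 36.3 and 150 CPM in CONTROL and between 29.7 and 49.4 CPM in HOXA13, and their part was not tested either. Gpx4, which reduces lipid peroxides in membranes, was counted at only 9.58 to 17.4 CPM, with 71.6% of its windows shared with other places in the genome, so its true level is uncertain. Gpx2, Gpx5 and Gpx6 were not tested and were at most 2.48 CPM.

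The ALDH genes had fitted changes from -1.07 to 3.45 on the log2 scale. Of 20 genes 14 were tested, 9 with a fitted change above 0 and 5 below, with a median log2 fold change of 0.25, and 0 passed the threshold. The median was -0.033 without HOXA13 1, 0.032 without CONTROL 1 and 0.37 without HOXA13 2, so its sign was not stable. Aldh1a3, which makes retinoic acid from retinaldehyde, was at 12.1, 42.3 and 23.0 CPM in CONTROL, against 110, 145 and 184 in HOXA13. Every HOXA13 library was more than 2 times the highest CONTROL library. The means were 25.8 ± 15.3 and 147 ± 37.1 CPM (SD, n = 3 each), a 5.68-fold difference close to that of Mgst3. Its log2 fold change of 2.51 had a larger SE, 0.43, and missed the threshold in edgeR's test (unadjusted p = 0.000413, adjusted p = 0.0749). It passed without CONTROL 2 (3.05, adjusted p = 0.00129) and in DESeq2 (2.49, adjusted p = 3.67e-07). With any 1 other library left out, Aldh1a3 missed the threshold in edgeR, with changes of 2.15 to 2.66 and adjusted p between 0.129 and 0.425. The same held with the replicate number as a block (edgeR adjusted p = 0.157) and with the chromosome offset (adjusted p = 0.0852). In CONTROL the order of the libraries, 2 then 3 then 1, was that of the summed epithelial markers, as it was for Mgst3. In HOXA13 the order of those sums, 3 then 2 then 1, was that of Aldh1a3 but not of Mgst3, which was highest in replicate 2. The part of those markers was not tested. Aldh1a3 lies on chromosome 7, at chr7:73535778-73572403 on the minus strand (ENSMUSG00000015134.8).

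Aldh1l2, the mitochondrial enzyme of folate metabolism, had the largest fitted change among the members, but few counts. It had 0, 8 and 0 counts in CONTROL and 34, 50 and 26 counts in HOXA13, or at most 2.93 CPM. It passed the filter on low counts only through HOXA13, so its fitted change, its lack of overlap and its place among the 4 higher members are no support for a difference. The log2 fold change of 3.45 (SE 1.49) did not pass the adjusted test in edgeR (adjusted p = 0.352). Aldh5a1, succinic semialdehyde dehydrogenase, and Aldh18a1, which makes a precursor of proline, were like Gsr in that CONTROL 2 was at or above a HOXA13 library. Aldh5a1 was at 11.1, 61.2 and 21.4 CPM in CONTROL, against 62.8, 40.5 and 60.8 in HOXA13, with a log2 fold change of 0.81 (SE 0.55) over all libraries. Without CONTROL 2 its change was 1.73 (SE 0.33, edgeR adjusted p = 0.0108).

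Aldh2 and Aldh3a2 had lower values in every HOXA13 library than in any CONTROL library. Aldh2, the mitochondrial enzyme that clears acetaldehyde, was at 167, 187 and 217 CPM in CONTROL, against 145, 95.6 and 106 in HOXA13. The means were 190 ± 25.2 and 116 ± 26.2 CPM (SD, n = 3 each), a log2 fold change of -0.72 (SE 0.20) with an unadjusted p of 0.00734 and an adjusted p of 0.169 in edgeR's test. It was -0.75 without CONTROL 2 (adjusted p = 0.0432) and -0.74 in DESeq2 (adjusted p = 0.0407). Aldh3a2, which oxidises fatty aldehydes, was at 44.4, 34.7 and 31.8 CPM in CONTROL, against 23.8, 22.7 and 27.6 in HOXA13, and its log2 fold change of -0.58 (SE 0.22) did not pass (adjusted p = 0.285, and 0.101 without CONTROL 2). Like Gpx3 it lies on chromosome 11 and was highest in CONTROL 1, and with the chromosome offset its change was -0.43 (adjusted p = 0.406). Aldh2 lies at chr5:122016036-122043833 and Aldh3a2 at chr11:61036919-61080966, both on the minus strand. Aldh4a1, of proline breakdown, was at 180, 104 and 205 CPM in CONTROL, against 130, 97.5 and 109 in HOXA13, so CONTROL 2 was again within the HOXA13 range. Aldh1a1, the ALDH gene known as a stem cell marker, was at most 1.87 CPM.

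The number of members called depended on CONTROL 2. It was at least 2-fold above both other CONTROL libraries in 7 tested members (Aldh18a1, Aldh1l2, Aldh5a1, Gsr, Gsta4, Gstm1 and Gstt2) and at least 2-fold below both in 3 (Gpx8, Gstk1 and Mgst1), on the log2(CPM + 0.5) scale. This was 25% of the tested members, against 17.9% of all tested genes. Without it, 12 of 43 tested members passed the threshold in edgeR, 7 higher and 5 lower, where 14.2% of all tested genes did. The higher ones were Mgst3, Aldh1a3, Aldh1l2, Aldh5a1, Aldh18a1, Gsr and Gstt2, and the lower ones Gclc, Gpx3, Gpx8, Aldh2 and Aldh4a1. Both remaining CONTROL libraries of Aldh1l2 had 0 counts, so its call is no support for a difference here either. When any 1 of the other 5 libraries was left out, no member was called but Mgst3, without HOXA13 1. The members at least 2-fold higher in CONTROL 2 than in CONTROL 1 and 3 moved there with the summed pluripotency and proliferation markers, whose part was not tested. The 2 groups then did not overlap for 11 members above and 11 below, of 40, against 49.2% of all tested genes. With all 6 libraries, DESeq2 called 4 of 46 members (Mgst3, Aldh1a3, Aldh2 and Gpx3), where it called 5.05% of all genes. limma voom with sample quality weights, which gave CONTROL 2 the lowest weight, called 10 of 40, against 15.4% of all genes. Without a filter edgeR called 2 members (Mgst3 and Aldh1a3), against 0.921% of all genes, and the edgeR 4 method called the same 2, against 0.779%. With the chromosome offset 0 members were called, where 1 of all 13600 genes, or 0.00735%, was called.

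**Figure D4:**
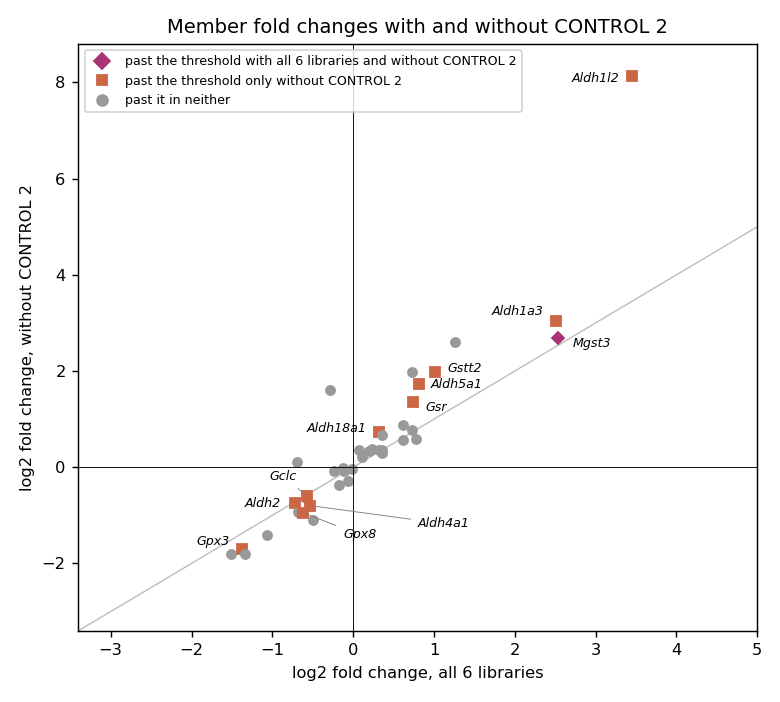
Log2 fold change of each of the 40 members tested with all 6 libraries (horizontal axis) against the value without CONTROL 2 (vertical axis), with the line of equality. The squares are the 11 members past the threshold in the reported edgeR test without CONTROL 2 but not with all 6 libraries, and Mgst3 is the diamond. The value of Aldh1l2 at 8.13 was fitted against CONTROL libraries at 0 and is no measure of its fold change.

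Most other genes of these pathways did not pass the test either. Of 72 genes in lists of Nrf2 regulators, Nrf2-responsive enzymes, thioredoxin, superoxide and glutathione breakdown enzymes, cysteine supply, conjugate export and alcohol and retinol dehydrogenases, 61 were tested. The fitted change was above 0 for 30 and below 0 for 31, with a median log2 fold change of -0.02, where all tested genes had 6639 above, 6961 below and a median of -0.01. One passed the threshold: Rdh10, which makes retinaldehyde from retinol and so acts just before Aldh1a3. It was at 58.9, 48.2 and 71.6 CPM in CONTROL, against 137, 179 and 193 in HOXA13. The groups were far from overlap, with a log2 fold change of 1.51 (SE 0.21; edgeR adjusted p = 0.0461). Rdh10 too lies on chromosome 1, at chr1:16095855-16123815 on the plus strand. With the chromosome offset its change was 0.94 (adjusted p = 0.121), past the threshold no longer. In edgeR the call held without CONTROL 2 (1.36, adjusted p = 0.00418), but not without any 1 of the other 5 libraries. There the adjusted p was between 0.0737 and 0.341, with a change between 1.39 and 1.64. The call was also lost with genes kept only from a mean of 50 counts (1.48, adjusted p = 0.0517). With the replicate number fitted as a block it was lost too (1.51, adjusted p = 0.165).

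At an unadjusted p under 0.05 there were 4 higher and 6 lower genes of the 61, against 14.1% of all tested genes, so the count is no result about these lists. The higher ones besides Rdh10 were Cul3, part of the ligase that degrades Nrf2 (0.44, on chromosome 1, whose median was 0.54), G6pdx, which supplies the NADPH that Gsr uses (0.57), and Prdx5, a peroxiredoxin (0.70). The lower ones were Me1, which also supplies NADPH (-0.50), the aldose reductase-like Akr1b8 (-1.21), Ugdh (-0.75), the peroxiredoxin Prdx2 (-0.43), superoxide dismutase Sod1 (-0.82) and Adh5 (-0.77), which metabolises the adduct of glutathione and formaldehyde. Of these 10 genes, only Rdh10 passed the adjusted test in edgeR. Without CONTROL 2, 6 of 62 were called higher (Abcc4, Cbs, Cth, G6pdx, Rdh10 and Tkt) and 2 lower (Akr1b8 and Ugdh), where 14.2% of all tested genes were called. Abcc4 and Tkt lie on chromosome 14, which had a median log2 deviation of -0.40 and -0.32 in CONTROL 1 and 3, against 0.20 in CONTROL 2 and 0.14 to 0.22 in HOXA13, and the part of this shift was not tested. None of the 55 members with a position lies on chromosome 14.

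Nrf2 itself and its best-known targets did not pass the test. Nfe2l2 was at 104, 74.4 and 83.5 CPM in CONTROL, against 59.5, 63.5 and 72.0 in HOXA13. Its groups did not overlap, CONTROL 2 being only just above HOXA13 3, and its log2 fold change was -0.43 (SE 0.19; edgeR adjusted p = 0.357). Keap1 differed by -0.05 (SE 0.20) on the same scale. Nqo1, a quinone reductase, was at 28.3, 40.8 and 18.2 CPM in CONTROL, against 28.0, 12.5 and 14.8 in HOXA13, with a log2 fold change of -0.66 (SE 0.40; adjusted p = 0.527). Hmox1, heme oxygenase, was between 601 and 857 CPM in CONTROL and between 431 and 578 CPM in HOXA13, with a log2 fold change of -0.41 (SE 0.20; adjusted p = 0.414). The list of Nrf2-responsive enzymes as a whole had 6 fitted changes above 0 and 7 below. Srxn1, which repairs oxidised peroxiredoxins, was at 87.6, 63.7 and 79.2 CPM in CONTROL, against 87.8, 87.6 and 122 in HOXA13, with a log2 fold change of 0.37 (SE 0.20; adjusted p = 0.484). The lowest HOXA13 library was only just above CONTROL 1.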

How the data were processed

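RNA was measured in 6 libraries from NEBNext Ultra Directional kits, and groups and replicate numbers were taken from the sample titles. The authors deposited raw counts per gene symbol, made by aligning reads of 75 bases to mm9 with TopHat and counting with HTSeq 0.6.1p1 (the submitters' processing notes give TopHat2 2.0.14). The gene annotation, the strand option and how multiply aligned reads were handled are not given in the sources used here, so genes that overlap or share sequence are uncertain.

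Counts were analysed with edgeR 4.0.16 in R 4.3.3: filterByExpr (minimum count 10, minimum total 15), TMM scaling, and the quasi-likelihood test (glmQLFit and glmQLFTest, legacy method) of HOXA13 against CONTROL, with Benjamini-Hochberg adjustment over 13600 genes and a threshold of 0.05. SEs came from the F statistic. CPM used the TMM library sizes. The code was tested on simulated data. P-values set the difference between the groups against the spread between these samples, which may be partly technical. Alternatives were RLE and upper quartile scaling, no filter, a mean of at least 50 counts, DESeq2 1.42.0, limma 3.58.1 voom with quality weights, the edgeR 4 method, a replicate block, a chromosome offset and each replicate left out. The median without genes of at least 25% shared sequence was added after the data were seen. The window of 0.5 Mb around Mgst3, between gene middles, was also chosen after the data were seen.

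Positions are of GENCODE M1 (mm9), matched for 55 of 56 members, with exon lengths from its gene models. The sharing of 75-base windows (at most 2 mismatches) was found with BLAST. The members and lists were chosen with earlier results of these data known. Values in every sample are given for members past the adjusted threshold, those with an unadjusted p under 0.05 or with no overlap and a mean of at least 5 CPM, the highest member of each family, Gclc, Gclm, Gss, Gsr and every member on chromosome 1. From the other lists, genes past either p and Nfe2l2, Keap1, Nqo1 and Hmox1 are named. Gsta4, Gstm1, Gstt2, Gpx8, Aldh4a1, Aldh5a1 and the other members named, and Srxn1 of the lists, were chosen after their values were seen.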

Additional observations from a re-analysis of the deposited data

How the results depend on the processing

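With 3 libraries a group, 1 of them apart from its group, few changes of these genes could be shown, and low members near 1 CPM could not be resolved at this depth. The number of members past the threshold was 1 with RLE or upper quartile scaling and with genes kept only from a mean of 50 counts, where 34, 40 and 9 of all genes were called, but 2 without a filter and with the edgeR 4 method, 4 with DESeq2, 10 with limma voom and 0 with the chromosome offset, where the fits called 163, 106, 722, 2101 and 1 of all genes. Leaving out 1 library each gave between 0 and 12. All genes called fell to 1 without CONTROL 1 and to 0 without CONTROL 3, HOXA13 2 or HOXA13 3, so the 0 members there say nothing of these genes in particular. The replicate numbers share no stated origin, and same-numbered samples did not deviate together (r = -0.238, -0.302 and 0.12). With the number as a replicate block, 0 members and 0 of all genes passed, and the log2 fold change of Mgst3 was 2.56 (adjusted p = 0.0535 in edgeR).

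The log2 fold change of Mgst3 was 1.96 with the chromosome offset and between 2.35 and 2.68 with 1 library left out. It was above 0 under all 15 alternatives. The count of members without overlap, 8, was between 9 and 22 with 1 library left out, as fewer libraries leave less room for overlap, and this rise is no result about the members. The median of all members was between -0.10 and 0.30 with 1 library left out, -0.054 with limma voom and -0.011 without genes of shared sequence. Among family medians, cytosolic GST was between 0.047 and 0.74 with 1 library left out and -0.12 without genes of shared sequence, GPX between -0.93 and -0.31, and ALDH between -0.033 and 0.37. The microsomal median, over 1 to 3 genes, was 0.60 in the reported fit, between 0.16 and 0.91 with 1 library left out, 0.31 with the chromosome offset, 1.96 without a filter, 2.51 with genes kept from a mean of 50 counts and 2.06 with DESeq2. Small changes turned sign: Aldh9a1 (-0.23) and Gpx1 (0.022) with the chromosome offset, and, with 1 library left out, Gpx1 (-0.21 to 0.069), Gclm (-0.062 to 0.20) and Gss (-0.28 to 0.049). The causes were not tested.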
